A study of Drosophila melanogaster with 9 samples.

Results

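Whole larvae of metafemale *Drosophila melanogaster* were compared with whole larvae of normal diploid females, to describe which larval tissues and which hormone-timed programs differed in RNA level. The comparison used 6 of the 9 libraries of the study, chosen by their labels: 3 of metafemales (XXX) and 3 of females (CF), all of the third instar and raised at 25 °C. Metafemales carried 3 X chromosomes and 2 sets of autosomes, and females 2 X chromosomes with the same autosomal sets. The metafemales were progeny of C(1)DX, ywf/winscy mothers, whose X chromosomes are attached to each other, and Canton S fathers, and they were sorted by sex and by their black mouthparts. The female controls were Canton S larvae from no such cross. The groups therefore differed in strain background as well as in X number, and these cannot be told apart. The hours that each larva had spent in the instar, and whether the replicates came from separate cultures, were not given in the sources used here, so p-values measure the spread between these libraries, which may be technical.

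The third instar is the last feeding stage of the larva. Small pulses of the steroid hormone ecdysone during this instar change what each tissue makes, and a large pulse at its end starts metamorphosis. In the salivary gland the hormone first turns on the glue genes, whose products fix the pupal case to its support. In the fat body it turns on late storage proteins and in the imaginal discs, the precursors of adult organs, it drives eversion and differentiation. Juvenile hormone, made by the corpora allata, holds back the metamorphic response, and damaged or slowly growing discs can delay the ecdysone pulse through the peptide Ilp8. Larval gut, muscle and epidermis serve feeding and crawling until that point.

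Expression is given as CPM, that is, estimated counts summed over the transcripts of a gene and scaled to 1000000 counts by the TMM-adjusted library size, and a fold change is on the log2 scale, metafemale over female. A gene was called higher or lower where the log2 fold change was beyond 1 or -1 and the adjusted p was under 0.05 (edgeR quasi-likelihood test with Benjamini-Hochberg adjustment over all 11995 genes tested). By this rule 1169 genes (9.75%) were higher in metafemales and 579 (4.83%) were lower. With no limit on the fold, 2475 genes (20.6%) were higher and 2161 (18.0%) lower. Calls in the higher direction made up 66.88% of all calls, and 56.02% where libraries were scaled by their totals over annotated transcripts instead, where 1976 genes were higher and 3090 lower at any fold. That scaling lowered the median log2 fold change by 0.14, so differences of that size depend on the scaling. The median over all genes tested was -0.03, that of 1924 X-linked genes 0.43 and that of 10071 other genes -0.12. Total counts were 139954374 to 168844124 in metafemale libraries and 138223737 to 184268612 in female libraries. The TMM-adjusted library sizes, taken over the genes tested, were 109624870 to 128488464, so 3 counts correspond to 0.0233 to 0.0274 CPM. Such floors cover counting error only. Metafemale replicate 1 stood apart in that assembled transcripts took 13.45% of its counts, where their share was 25.83% to 27.05% for metafemale replicates 2 and 3 and 27.22% to 31.41% for females, and the part of this in any result was not tested. As a check of the labels, the Y-linked genes *kl-2*, *kl-3*, *kl-5* and *ORY* had 0 counts in all 6 libraries and 10706 to 64789 counts, summed, in each male library.

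The members were 466 genes in 28 lists, named for 7 tissues or programs: salivary gland, gut, fat body, discs, muscle, cuticle and hormone timing. Of these, 401 passed the filter on low counts and were tested. There were 79 members (19.7%) called higher in metafemales and 47 (11.7%) called lower, against 9.75% and 4.83% of all genes. At any fold 124 members (30.9%) were higher and 92 (22.9%) lower, against 20.6% and 18.0% of all genes. The lists were chosen with earlier results of these data known, so these shares do not test whether members changed more than other genes. Called members with large folds were named partly because their groups did not overlap, so the lack of overlap is no further support for them. The directions differed between tissues. Gut and larval muscle genes stood mostly higher in metafemales and glue and disc patterning genes mostly lower, and cuticle genes moved in both directions. More hormone-timed genes passed as lower than as higher, a count that moved with single libraries. In libraries of whole larvae, fewer cells of a type and less RNA per cell cannot be told apart.

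**Figure D1:**
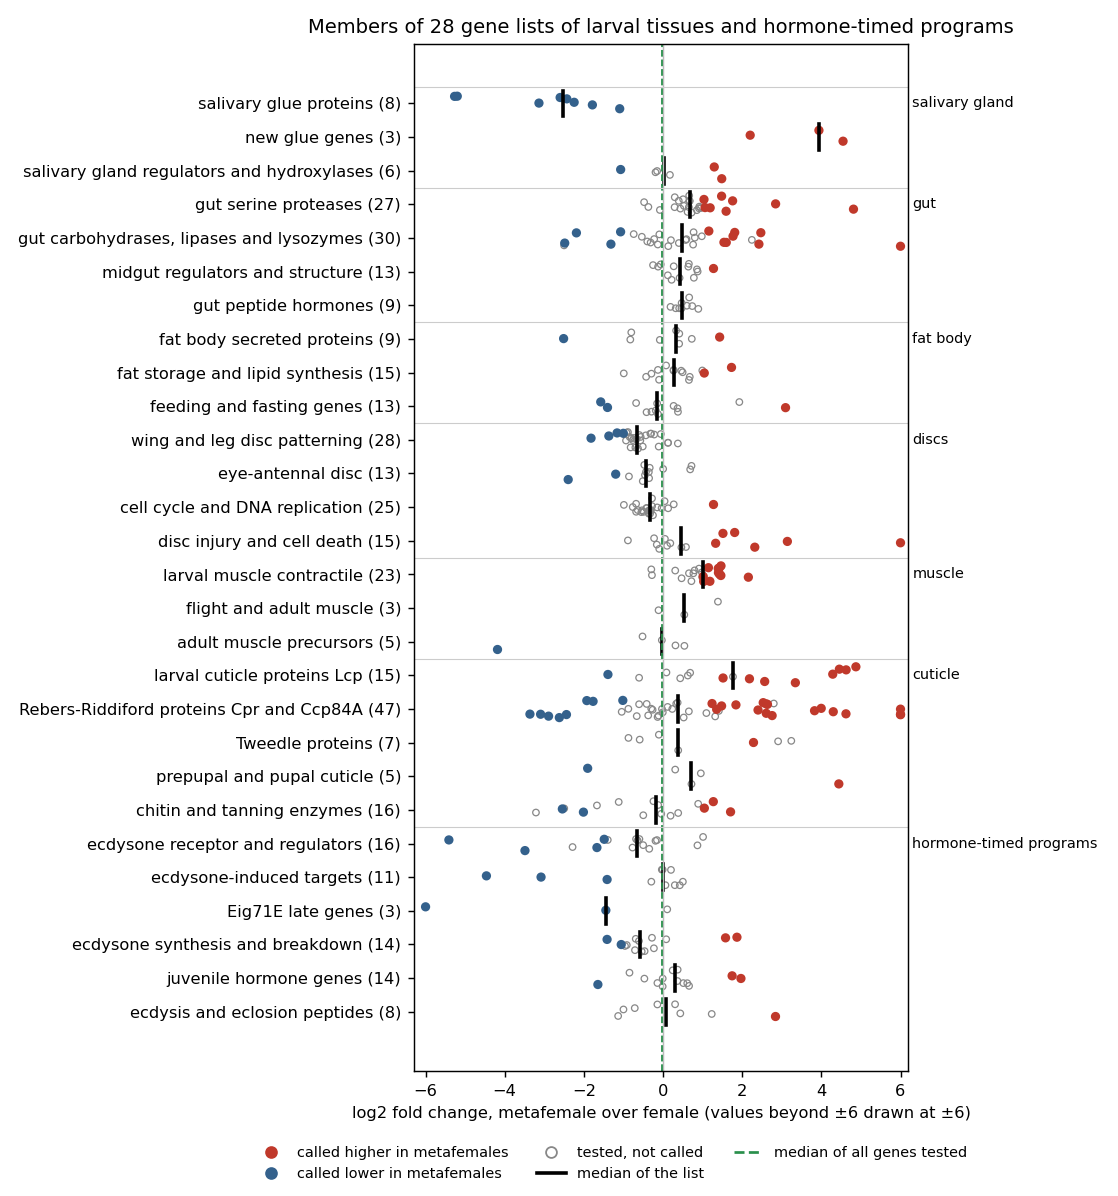
Log2 fold change, metafemale over female, of each tested member (points) of the 28 lists, with the number tested in brackets, the median of each list as a black bar and the median of all genes tested as a dashed green line. Filled red points were called higher and filled blue points lower in metafemales. All 8 glue genes lie left of -1, all 3 tested new glue genes right of 2, and no wing and leg disc gene is called higher.

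Genes of the salivary gland changed in opposite directions. All 8 glue genes were lower in metafemales, with a median log2 fold change of -2.52, and their summed level was 1145, 2871 and 2616 CPM in the metafemale libraries, against 9388, 10267 and 10200.0 CPM in the female libraries. The sum was thus 4.5-fold lower in metafemales. All 3 tested new glue genes, a salivary gland family of the X chromosome, were higher. Over both lists and the regulators, 5 of 17 tested genes were higher and 9 lower.

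*Sgs3*, a glue protein gene in a cluster with *Sgs7* and *Sgs8* on 3L (11508967 to 11513402 in BDGP6), had 29.6, 57.2 and 45.3 CPM in the metafemale libraries, against 240.4, 229.8 and 242 CPM in the female libraries. The groups did not overlap, and metafemale replicate 1 was the lowest library. The log2 fold change was -2.43 (SE 0.24, edgeR adjusted p = 0.00102). Its neighbour *Sgs8* had 63.6, 251 and 202 CPM in the metafemale libraries, against 1353, 1568 and 1622 CPM in the female libraries, a change of -3.14, and *Sgs7* changed by -2.25. The deepest fall without overlap was that of *Sgs5bis*, with 2.24, 4.81 and 8.36 CPM in the metafemale libraries, against 236, 178 and 180.02 CPM in the female libraries, or -5.27 (SE 0.50, edgeR adjusted p = 0.000966). *Sgs5*, the next gene of that pair, fell by 1.79. *Eig71Ee*, which encodes another glue protein from the 71E region, had 41.9, 64.1 and 83.1 CPM in the metafemale libraries, against 391, 394 and 362 CPM in the female libraries, and fell by 2.60. In each of these genes metafemale replicate 1 was the lowest of all 6 libraries. The X-linked *Sgs4*, of which metafemales hold an extra copy, had 31.9, 68.7 and 83.96 CPM in the metafemale libraries, against 126, 125 and 143 CPM in the female libraries. Its log2 fold change was -1.09 and the call was kept in 1 of the 6 fits that each left out 1 library, with log2 fold changes of -1.38 to -0.78. *Sgs1* had 0.303, 0.298 and 0.569 CPM in the metafemale libraries, against 0.521, 26.5 and 16.2 CPM in the female libraries. Female replicate 1 lay close to the metafemales and below metafemale replicate 3. The log2 fold change was -5.20 (SE 1.28, edgeR adjusted p = 0.0193). The call was kept in 2 of the 6 fits with 1 library left out, and without female replicate 2 the change was -4.39 (edgeR adjusted p = 0.0503). The other 6 glue genes kept their calls in every such fit.

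The new glue genes lie together on the X chromosome (3240026 to 3244220). *ng3* had 123, 157 and 95.3 CPM in the metafemale libraries, against 27.2, 30.97 and 23.4 CPM in the female libraries. *ng2* had 33.96, 46.4 and 23.7 CPM in the metafemale libraries, against 2.86, 1.9 and 2.02 CPM in the female libraries, and *ng1* 6.03, 31.6 and 15.9 CPM in the metafemale libraries, against 0.249, 0.753 and 1.3 CPM in the female libraries. No metafemale library overlapped a female one for any of them. Their log2 fold changes were 2.202 (SE 0.21, edgeR adjusted p = 0.000935) for *ng3*, 3.94 for *ng2* and 4.55 for *ng1*, above the 0.43 of the median X-linked gene. *ng1* and *ng2* are near-identical, so the division of counts between them is uncertain, and *ng4*, with at most 0.0346 CPM in any library, was not tested. Without X-linked genes, 2 salivary gland members were higher and 7 lower.

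**Figure D2:**
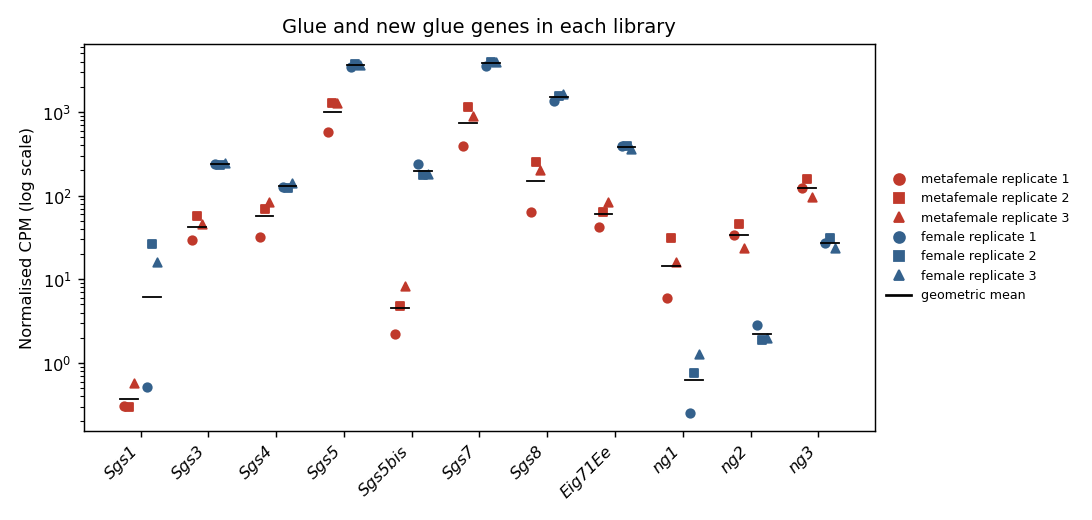
Normalised CPM (log axis) of the 8 glue genes and the 3 tested new glue genes in each metafemale (red) and female (blue) library, with the geometric mean as a bar and symbols for replicates. The glue genes lie lower in metafemales, with overlap in *Sgs1*, while *ng1*, *ng2* and *ng3* lie higher.

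The regulators of the gland moved less. *sage*, a transcription factor gene specific to this gland, had 12.1, 14.4 and 15.5 CPM in the metafemale libraries, against 31.3, 27.3 and 29.5 CPM in the female libraries, and fell by 1.07. It kept that call in 4 of the 6 fits with 1 library left out. *fkh*, which specifies the gland and turns on glue genes, differed by -0.15 (edgeR adjusted p = 0.429), and *CrebA*, a regulator of secretory capacity, by 0.17 (adjusted p = 0.415). The prolyl hydroxylase genes *PH4alphaSG1* and *PH4alphaSG2*, named for their expression in this gland, were higher. *PH4alphaSG1* had 10.4, 10.1 and 8.65 CPM in the metafemale libraries, against 3.46, 3.4 and 3.56 CPM in the female libraries, a change of 1.48 (SE 0.12, edgeR adjusted p = 0.000638). *PH4alphaSG2* changed by 1.29, again without overlap.

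Gut genes were mostly higher in metafemales. Of 79 tested, 17 (21.5%) were called higher and 4 (5.1%) lower, and at any fold 42 (53.2%) were higher and 4 (5.1%) lower. The median log2 fold change was 0.62. The summed level of the digestive serine proteases was 34308, 38147 and 31262 CPM in the metafemale libraries, against 25727, 21971 and 17875 CPM in the female libraries, 1.58-fold higher in metafemales and without overlap.

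Among the 27 trypsin and Jonah protease genes, 8 were called higher and none lower, and 20 were higher and none lower at any fold. Without metafemale replicate 2, 5 were called higher. With libraries scaled by annotated totals these last counts were 19 higher and 1 lower. *lambdaTry*, a trypsin gene, had 14.8, 17.1 and 9.25 CPM in the metafemale libraries, against 0.428, 0.345 and 0.693 CPM in the female libraries. *kappaTry*, next to it on 2R, had 64.6, 71.6 and 49.1 CPM in the metafemale libraries, against 9.64, 8.92 and 7.24 CPM in the female libraries. *zetaTry* had 52.4, 62.7 and 55.6 CPM in the metafemale libraries, against 22.1, 15.3 and 13.03 CPM in the female libraries. The groups stood clear of each other in all of these, with log2 fold changes of 4.81 (SE 0.36, edgeR adjusted p = 0.000598), 2.84 and 1.76 in that order. *Jon65Aiv*, a Jonah protease gene, had 1999, 2256 and 1845 CPM in the metafemale libraries, against 1255, 1046 and 932 CPM in the female libraries, a difference of 0.92 (SE 0.15, edgeR adjusted p = 0.00472), which passed at any fold but was under 1. *Jon25Bi* rose by 1.48, *thetaTry* by 1.59 and *betaTry* by 1.19, the last with its call kept in 4 of the 6 fits with 1 library left out. Not all members moved. *alphaTry* (-0.37, edgeR adjusted p = 0.11) and *Jon25Biii* (-0.48, adjusted p = 0.142) had overlapping groups. Trypsin and Jonah genes form tandem families of similar sequence, so reads may be shared between neighbours.

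Carbohydrases, lipases and lysozymes were mixed. Of 30 tested, 8 were called higher and 4 lower, and 2 lower without female replicate 3 or metafemale replicate 2. The alpha-mannosidase gene *LManIII* had 184, 158 and 143 CPM in the metafemale libraries, against 41.3, 31.3 and 14.97 CPM in the female libraries, or 2.47 (SE 0.36, edgeR adjusted p = 0.00309), and *LManIV*, *LManV* and *LManVI* rose by 1.81, 1.54 and 1.597. Of the maltases, which split sugars at the gut surface, *Mal-A2* rose by 2.42, *Mal-A3* by 1.77 and *Mal-A1* by 1.157 (called in 2 of the 6 fits with 1 library left out), whereas *Mal-A5* fell by 1.07. The amylase gene *Amy-p* had 17.2, 22.4 and 16.4 CPM in the metafemale libraries, against 38.5, 16.9 and 25.7 CPM in the female libraries, with overlap (log2 fold change -0.54, edgeR adjusted p = 0.193), and it shares reads with its near-identical copy *Amy-d*. *LysP*, a lysozyme gene, had 0.961, 1.32 and 1.32 CPM in the metafemale libraries and 0 counts in each female library, at least 46.6-fold higher against a floor of 3 counts per library. *LysX*, another lysozyme gene, had 1.11, 6.49 and 9.37 CPM in the metafemale libraries, against 17.2, 36.5 and 41.3 CPM in the female libraries. Its call, with a change of -2.48 (SE 0.73, edgeR adjusted p = 0.0351), was kept in 3 of the 6 fits with 1 library left out. The lipase-family genes *CG6277* and *CG6283* changed by -2.19 and -1.32, and *CG6283* kept its call in 3 of the 6 fits.

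Of 13 genes that mark the midgut itself rather than its secretions, 1 (7.7%) was called higher and none lower, against 9.75% and 4.83% of all genes. At any fold 5 (38.5%) were higher and none lower, against 20.6% and 18.0% of all genes. *Myo31DF*, a myosin of the enterocyte brush border, had 280.1, 279 and 274 CPM in the metafemale libraries, against 117, 117 and 113 CPM in the female libraries. Replicates agreed within a few CPM in both groups, and the log2 fold change was 1.26 (SE 0.08, edgeR adjusted p = 0.000467). Its partner *Myo61F* differed by 0.87, *mex1*, a marker of midgut enterocytes, by 0.78, the copper cell regulator *lab* by 0.86 and the endoderm factor gene *GATAe* by 0.65, all past the adjusted p at any fold but under the limit of 1. The progenitor marker *esg* (-0.25, edgeR adjusted p = 0.254) had overlapping groups. Of 9 peptide hormone genes of the gut, none was called at the fold limit and 6 were higher at any fold, led by *NPF* (0.89) and *Tk* (0.74); this count was 3 where libraries were scaled by totals of the whole table or of annotated transcripts.

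Few fat body genes were called, and their shares at any fold were near those of all genes. Of 37 tested, 4 (10.8%) were called higher and 3 (8.1%) lower, and at any fold 9 (24.3%) were higher and 7 (18.9%) lower. The 9 became 5 without female replicate 2, female replicate 3, metafemale replicate 1 or metafemale replicate 2. The largest fall was that of *Fbp1*, which encodes the fat body receptor for larval serum proteins and is a classical late-larval ecdysone target. It had 697, 2439.6 and 3393 CPM in the metafemale libraries, against 12970.1, 12931 and 11350.4 CPM in the female libraries. The groups did not overlap, metafemale replicate 1 was the lowest, and the metafemales differed more among themselves than the females. The change was -2.51 (SE 0.53, edgeR adjusted p = 0.0112). *Fbp2*, another late fat body gene, had 4136, 4467 and 4252 CPM in the metafemale libraries, against 8046, 7665 and 7096 CPM in the female libraries, and the storage hexamerin *Lsp2* 8708, 8908 and 10714 CPM in the metafemale libraries, against 17477, 17092 and 14839.8 CPM in the female libraries. For both, every metafemale library lay below every female library, with log2 fold changes of -0.83 (edgeR adjusted p = 0.00268) and -0.80 (adjusted p = 0.00629), under the fold limit.

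The subunit genes of larval serum protein 1, a storage hexamer of the blood, did not pass at any fold. *Lsp1alpha*, on the X chromosome, had 12759, 12748 and 12164 CPM in the metafemale libraries, against 18729, 12588 and 8543 CPM in the female libraries. Its metafemale libraries lay within the range of the females (-0.08, edgeR adjusted p = 0.833). *Lsp1beta* differed by 0.41 (adjusted p = 0.155) and *Lsp1gamma* by 0.73 (adjusted p = 0.11). The lipid carrier gene *Apoltp* had 327, 252 and 206 CPM in the metafemale libraries, against 90.9, 96.3 and 104 CPM in the female libraries, and rose by 1.43 (SE 0.18, edgeR adjusted p = 0.00195), while *apolpp*, the main lipophorin, overlapped (0.41, adjusted p = 0.327).

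Of the fat storage and lipid synthesis genes, 6 were higher at any fold, but 2 without female replicate 2 and 3 without female replicate 3, metafemale replicate 1 or metafemale replicate 2. *ACC*, for the enzyme that commits acetyl-CoA to fatty acids, had 372, 285 and 220.2 CPM in the metafemale libraries, against 104, 79.9 and 79.96 CPM in the female libraries, or 1.73 (SE 0.22, edgeR adjusted p = 0.002). *FASN1*, the fatty acid synthase gene, had 905, 771 and 639.98 CPM in the metafemale libraries, against 539, 353 and 232 CPM in the female libraries, with a log2 fold change of 1.04 (edgeR adjusted p = 0.035) that stayed called in 1 of the 6 fits with 1 library left out. The desaturase gene *Desat1* stood at 0.99, just under the limit. In the other direction, *Lsd-1*, a lipid droplet coat protein that gates fat breakdown, had 262, 324 and 344 CPM in the metafemale libraries, against 647, 576 and 627 CPM in the female libraries, a difference of -0.99. No metafemale library of these genes lay within the range of the females. Among feeding and fasting genes, *Ilp6*, an insulin-like peptide that the fat body makes late in larval life, had 24.9, 25.3 and 34.5 CPM in the metafemale libraries, against 69.9, 90.2 and 92.005 CPM in the female libraries, and fell by 1.57 (SE 0.18, edgeR adjusted p = 0.00142). It is X-linked. The lipase gene *Lip3*, which fasting turns on, fell by 1.40 with its call kept in 2 of the 6 such fits. The cytokine gene *upd2* was low in all libraries, with 1.55, 0.885 and 3.08 CPM in the metafemale libraries, against 0.156, 0.0974 and 0.392 CPM in the female libraries, and rose by 3.10. *InR*, the insulin receptor gene, did not pass (-0.42, adjusted p = 0.142 by edgeR).

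Muscle structural genes were higher in metafemales. Of the 23 tested genes for larval contractile proteins, 11 were called higher and none lower, and 16 were higher and none lower at any fold, with a median of 1.02. The summed level was 70544, 66799 and 49502 CPM in the metafemale libraries, against 37849, 30094 and 23067 CPM in the female libraries, 2.05-fold higher. The count at any fold was 6 without female replicate 2, 10 without metafemale replicate 1 and 7 without metafemale replicate 2, and the called count 4, 6 and 5 in that order. Where libraries were scaled by annotated totals, 16 were higher and 2 lower at any fold.

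*Mhc*, the muscle myosin heavy chain gene, had 7657, 6011 and 4299 CPM in the metafemale libraries, against 3244, 2239 and 1234 CPM in the female libraries. The groups were separate, yet both spanned a wide range. The log2 fold change was 1.42 (SE 0.38, edgeR adjusted p = 0.0251), and without female replicate 2 it was 1.43 (adjusted p = 0.077). The call was kept in 3 of the 6 fits with 1 library left out, and lost also without metafemale replicate 1 or 2. *TpnC47D*, a troponin C gene of larval muscle, had 191, 203 and 121 CPM in the metafemale libraries, against 53.5, 37.3 and 24.9 CPM in the female libraries, and rose by 2.16 (SE 0.32, edgeR adjusted p = 0.00342). *Mlp60A*, a muscle LIM protein gene, rose by 1.46, and the X-linked troponin genes *wupA* and *up* by 1.43 and 1.40. *TpnC25D* had 43.3, 54.4 and 29.2 CPM in the metafemale libraries, against 22.3, 14.7 and 8.98 CPM in the female libraries. Its call, at 1.46, was kept in 3 of the 6 such fits, and lost without female replicate 2 (adjusted p = 0.0661) and without metafemale replicate 1 or 2. *Tm1* (0.98) and *Tm2* (0.99), the tropomyosins, passed at any fold only. *Zasp66* and *tn* were below 0, at -0.30 and -0.28, and neither passed.

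Genes of adult muscle were low. Their summed level was 5.13, 2.5 and 3.81 CPM in the metafemale libraries, against 5.28, 3.74 and 1.95 CPM in the female libraries. Of 5, 3 were tested and none was called. *Act88F*, the flight muscle actin, was not tested. Of the precursor genes, *twi* had 0.355, 0.587 and 0.371 CPM in the metafemale libraries, against 9.005, 14.8 and 0.338 CPM in the female libraries. The third female library matched the metafemales, and the call of -4.20 was kept in 1 of the 6 fits with 1 library left out. *Mef2*, a regulator of muscle genes in larva and adult, differed by 0.31 (edgeR adjusted p = 0.0964).

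**Figure D3:**
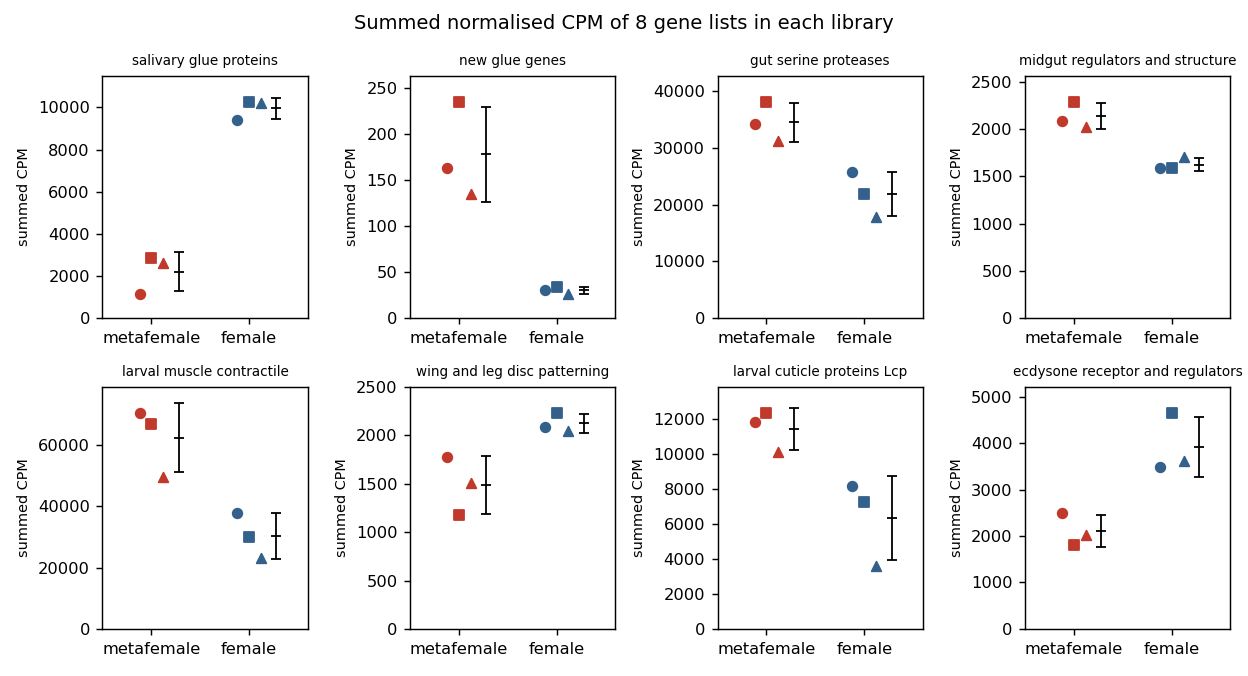
Summed normalised CPM of 8 gene lists in each library, metafemale (red, left) and female (blue, right), with the mean ± SD (n = 3 each) in black and symbols for replicates 1 (circle), 2 (square) and 3 (triangle). Sums are lower in metafemales for glue proteins, disc patterning genes and ecdysone regulators. They are higher for new glue genes, gut proteases, midgut genes, larval muscle and Lcp cuticle proteins. The 8 lists were picked from the 28, and none of them overlaps between groups. Sums of some lists not shown did overlap, among them fat body secreted proteins, eye-antennal disc genes and ecdysone-induced targets.

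Most imaginal disc genes that passed the test at any fold were lower in metafemales, mainly by less than the fold limit. Of 81 tested in 4 lists, 7 (8.6%) were called higher and 6 (7.4%) lower, but at any fold 12 (14.8%) were higher and 35 (43.2%) lower. Patterning and cell cycle genes made up 34 of the 35 lower genes, and injury-response genes 8 of the 12 higher ones. The 35 became 23 without female replicate 1 or female replicate 2, when 10 and 9 were higher.

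Of 28 genes that pattern wing and leg discs, 4 were called lower and none higher, and at any fold 17 were lower and none higher. Without metafemale replicate 2, 2 were called lower. The median was -0.65, and the summed level was 1775, 1180.1 and 1511 CPM in the metafemale libraries, against 2088, 2237 and 2048 CPM in the female libraries. *Dll*, which sets the distal part of legs and antennae, had 16.9, 23.1 and 24.7 CPM in the metafemale libraries, against 59.95, 52.4 and 54.98 CPM in the female libraries, or -1.37 (SE 0.16, edgeR adjusted p = 0.00158). *vg*, the wing selector gene, had 10.1, 6.33 and 8.62 CPM in the metafemale libraries, against 15.4, 21.1 and 19.5 CPM in the female libraries, or -1.161 (SE 0.20, edgeR adjusted p = 0.00585), a call lost without metafemale replicate 2. *en*, the posterior compartment gene, had 0.32, 0.964 and 0.626 CPM in the metafemale libraries, against 2.27, 2.49 and 1.99 CPM in the female libraries, and fell by 1.82. *ara*, of the Iroquois complex, fell by 1.003, at the limit, and its call was kept in 2 of the 6 fits with 1 library left out. The groups were separate in each of these. Smaller differences that passed at any fold included those of the morphogen genes *wg* (-0.92) and *hh* (-0.76), the wing genes *ap* (-0.67) and *nub* (-0.73) and the leg gene *dac* (-0.84). *dpp*, the third morphogen, had 32.6, 31.4 and 28.7 CPM in the metafemale libraries, against 31.8, 34.6 and 29.9 CPM in the female libraries, with overlap (-0.06, edgeR adjusted p = 0.678). *sd*, the X-linked partner of *vg*, was at 0.37 (adjusted p = 0.201).

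In the eye-antennal disc, 2 of 13 tested genes were called, both lower. *ro*, which acts behind the front of photoreceptor differentiation, had 0.442, 0.193 and 0.148 CPM in the metafemale libraries, against 1.07, 1.44 and 1.61 CPM in the female libraries, a change of -2.40 (SE 0.46, edgeR adjusted p = 0.0079). *ato*, which founds the first photoreceptors at that front, fell by 1.20, with its call kept in 1 of the 6 fits. The selector gene *ey* overlapped (-0.46, adjusted p = 0.35 by edgeR). At any fold 5 genes were lower and 2, the X-linked *ct* and *lz*, were higher. Without female replicate 1, female replicate 3 or metafemale replicate 1, 1 gene was lower, and without female replicate 2 or metafemale replicate 2 there were 2 and 3. Without female replicate 2, female replicate 3 or metafemale replicate 1 none was higher. Neurons and glia also express several of these genes, among them *ey* and *ct*.

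Of 25 cell cycle genes, 12 were lower and 2 higher at any fold, with a median of -0.34. The lower count was 7 without female replicate 1, metafemale replicate 1 or metafemale replicate 3, and 7 without X-linked genes. *CycB*, the mitotic cyclin B gene, had 15.5, 18.7 and 19.8 CPM in the metafemale libraries, against 38.2, 36.3 and 32.5 CPM in the female libraries, a difference of -0.99, and *CycE*, which starts S phase, was at -0.77. *PCNA*, the replication clamp gene, overlapped (-0.28, edgeR adjusted p = 0.142). The only one past the fold limit was *dup*, a replication licensing gene, with 7.24, 6.98 and 7.16 CPM in the metafemale libraries, against 3.4, 2.67 and 2.88 CPM in the female libraries, or 1.26 (SE 0.13, edgeR adjusted p = 0.00125). In larvae these genes are also used by neuroblasts and by the endocycling larval tissues. Of 6 neuroblast genes none was called and 1 (*wor*, -0.67) was lower at any fold, and the part of these cells was not tested.

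Of 15 tested injury and stress genes of discs, 6 were called higher and none lower, and at any fold 8 were higher and 1 (*Mmp2*, -0.89) lower. The median was 0.46. *Ilp8* (3L, 17029812 to 17032080), the relaxin-like peptide through which damaged discs delay pupariation, had 12.6, 9.77 and 10.1 CPM in the metafemale libraries and 0 counts in each female library. It was at least 420.2-fold higher against a floor of 3 counts per library (edgeR adjusted p = 0.000396). *upd3*, a cytokine gene of the JAK/STAT pathway on the X chromosome, had 8.71, 4.88 and 7.7 CPM in the metafemale libraries, against 0.957, 0.585 and 0.867 CPM in the female libraries, or 3.14 (SE 0.30, edgeR adjusted p = 0.000935), and *upd1*, next to it, rose by 1.81. *Ets21C*, a transcription factor gene downstream of JNK signalling, had 7.82, 6.69 and 11.5 CPM in the metafemale libraries, against 1.86, 1.53 and 1.82 CPM in the female libraries, and rose by 2.32. The JNK targets *Gadd45* and *puc* stood at 1.51 and 0.58, of which only *Gadd45* was past the fold limit. The death gene *rpr* rose by 1.33, while *hid*, of the same family, overlapped (0.18, adjusted p = 0.505). The 6 called genes kept their calls in every fit with 1 library left out. Gut, blood and wounded epidermis can express the cytokine and JNK genes too. Of 15 blood cell genes, 3 were called higher and 1 lower, with summed levels of 2992, 2809 and 3125 CPM in the metafemale libraries, against 2309.5, 2004 and 1590.5 CPM in the female libraries, and their part in these values was not tested.

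**Figure D4:**
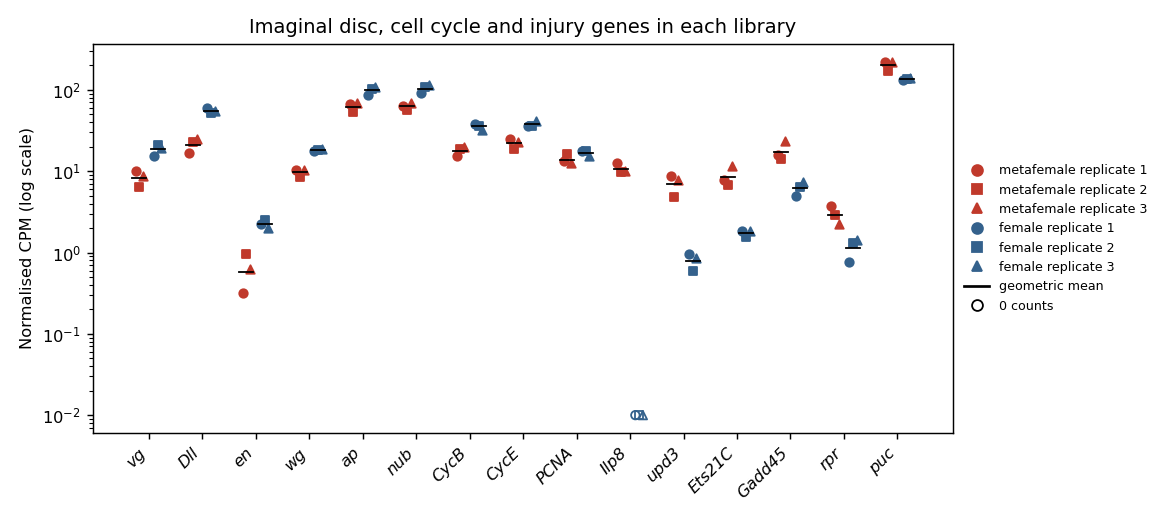
Normalised CPM (log axis) of disc patterning, cell cycle and injury genes in each metafemale (red) and female (blue) library, with the geometric mean as a bar. Open symbols at 0.01 stand for 0 counts. *vg*, *Dll* and *en* lie lower in metafemales, *Ilp8* is at 0 in all 3 female libraries, and *upd3*, *Ets21C*, *Gadd45* and *rpr* lie higher in metafemales.

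Cuticle genes moved in both directions. Of 142 listed, 90 were tested, of which 30 (33.3%) were called higher and 12 (13.3%) lower. The higher set held members of the 65A cluster on 3L (6130386 to 6161589), where 17 of 19 listed genes were tested, 11 were called higher and none lower. Genes of tandem copies share reads, so values of *Lcp65Ab1* and *Lcp65Ab2*, of *Lcp65Ag1* to *Lcp65Ag3*, of *Cpr65Ax1* and *Cpr65Ax2* and of *Cpr67Fa1* and *Cpr67Fa2* are uncertain singly.

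Lcp proteins are structural proteins of the larval cuticle. *Lcp65Ag3* had 39.2, 50.3 and 9.09 CPM in the metafemale libraries, against 1.56, 1.37 and 0.42 CPM in the female libraries, or 4.87 (SE 0.79, edgeR adjusted p = 0.00439), and *Lcp65Ag1* and *Lcp65Ag2* rose by 4.63 and 4.45. Metafemale replicate 3 was the lowest metafemale library for these genes, as female replicate 3 was the lowest female one. *Lcp9*, on 2R, had 602, 567 and 446 CPM in the metafemale libraries, against 130.3, 109 and 33.2 CPM in the female libraries, and rose by 2.57. *Lcp4* had 5229, 5448 and 4943 CPM in the metafemale libraries, against 3985, 3636 and 2092 CPM in the female libraries, a difference of 0.69 that did not pass (edgeR adjusted p = 0.0624). *Lcp1* went the other way, with 114, 202 and 207 CPM in the metafemale libraries, against 545, 495 and 333 CPM in the female libraries, or -1.39 (SE 0.28, edgeR adjusted p = 0.00967). In all, 8 of 15 tested Lcp genes were called higher and 1 lower. The higher count was 5 without female replicate 2 or metafemale replicate 2.

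The Cpr and Ccp84A genes encode proteins with the chitin-binding Rebers-Riddiford domain. Of 47 tested, 17 were called higher and 8 lower, and 5 lower without female replicate 1, female replicate 2 or metafemale replicate 3. *Cpr47Eg* had 47.1, 87.8 and 10.7 CPM in the metafemale libraries, against 0.436, 0.399 and 0.283 CPM in the female libraries, with groups far apart, or 7.02 (SE 0.86, edgeR adjusted p = 0.00187). *Cpr65Ax2* and *Cpr65Ax1* rose by 6.98 and 6.02. *Cpr47Ec* had 219.6, 199 and 128 CPM in the metafemale libraries, against 15.4, 11.7 and 7.15 CPM in the female libraries, and the X-linked *Cpr11A* 119, 98.9 and 86.4 CPM in the metafemale libraries, against 10.5, 5.99 and 4.84 CPM in the female libraries. These are changes of 3.996 and 3.83. Other members were lower. *Cpr49Ac* had 56.9, 86.6 and 186 CPM in the metafemale libraries, against 624, 1073 and 749 CPM in the female libraries, or -2.89 (SE 0.47, edgeR adjusted p = 0.00446), and *Cpr78E* 52.8, 101 and 137 CPM in the metafemale libraries, against 605, 624 and 558 CPM in the female libraries, or -2.62 (SE 0.33, edgeR adjusted p = 0.0021). *Cpr64Aa*, which was low throughout, had 0.0519, 0.123 and 0.0742 CPM in the metafemale libraries, against 1.18, 0.744 and 0.666 CPM in the female libraries, a change of -3.36. Genes of the same name group thus moved in both directions, as in 49A, where *Cpr49Af* rose by 2.40 and *Cpr49Ac* fell.

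Of the 26 Tweedle genes, 7 were tested and 1 called. *TwdlX*, on the X chromosome, had 33.1, 41.1 and 24.5 CPM in the metafemale libraries, against 10.5, 6.9 and 3.001 CPM in the female libraries, and rose by 2.27. Of 6 pupal and adult cuticle genes, 5 were tested, 1 was called higher and 1 lower. *Pcp*, the pupal cuticle protein gene within an intron of a purine synthesis gene, had 28.1, 38.9 and 47.7 CPM in the metafemale libraries, against 105, 197 and 127 CPM in the female libraries, and fell by 1.90 (SE 0.29, edgeR adjusted p = 0.00357). *Acp1*, an adult cuticle gene, was near the floor, with 0.502, 0.351 and 0.313 CPM in the metafemale libraries, against 0.0311, 0 and 0.0182 CPM in the female libraries, a change of 4.44, and the prepupal gene *Edg84A* was not tested. Among chitin genes, the chitinases *Cht5* and *Cht10*, which digest old cuticle at a moult, were lower. *Cht5* had 2.46, 3.08 and 5.24 CPM in the metafemale libraries, against 15.1, 29.1 and 18.7 CPM in the female libraries, or -2.54 (SE 0.36, edgeR adjusted p = 0.00293), and *Cht10* had 193, 253 and 355 CPM in the metafemale libraries, against 991, 1302 and 938 CPM in the female libraries, or -2.01 (SE 0.25, edgeR adjusted p = 0.00198). The chitin-binding proteins *obst-A* and *obst-E* rose by 1.71 and 1.27, and the chitin deacetylase *verm* by 1.04. The tanning enzyme genes *ple* and *Ddc* did not pass (edgeR adjusted p = 0.182 and 0.0538). For *ple*, the tyrosine hydroxylase gene, the values were 15.4, 10.9 and 17.3 CPM in the metafemale libraries, against 6.07, 231 and 8.48 CPM in the female libraries. Female replicate 2 alone was high, and without it the log2 fold change turned to 1.01 (edgeR adjusted p = 0.036). *Ddc*, for dopa decarboxylase, had 40.03, 28.6 and 69.9 CPM in the metafemale libraries, against 79.99, 273 and 88.1 CPM in the female libraries, highest again in that library.

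Of 66 tested genes of the hormone lists, 5 (7.6%) were called higher and 12 (18.2%) lower, and at any fold 8 (12.1%) were higher and 22 (33.3%) lower. Female replicate 2 stood apart from the other female libraries in several of these genes. Without it, 5 were called higher and 6 lower. The same counts were found without metafemale replicate 1 or 3, and without metafemale replicate 2 there were 5 called in each direction, so the excess of lower calls was not held there. The lower count at any fold was 12 without female replicate 2, 10 without metafemale replicate 2 and 13 without metafemale replicate 3. With a replicate block, 6 were called higher and 7 lower.

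The receptor genes did not pass the test. *EcR*, the ecdysone receptor gene, had 658, 398 and 424 CPM in the metafemale libraries, against 964, 549.8 and 725 CPM in the female libraries, with overlap (-0.60, edgeR adjusted p = 0.123), and its partner *usp* was at -0.15. Of the early regulators, *br* and *Eip74EF* were called lower. *br*, the X-linked Broad gene that marks the passage to metamorphosis, had 644, 437 and 558 CPM in the metafemale libraries, against 1303, 1852 and 1434 CPM in the female libraries. The groups were far apart, and the change of -1.49 (SE 0.20, edgeR adjusted p = 0.00241) was kept in every fit with 1 library left out. *Eip74EF*, an early ETS factor gene, had 94.01, 71.5 and 96.5 CPM in the metafemale libraries, against 141, 495 and 198 CPM in the female libraries, or -1.67 (SE 0.46, edgeR adjusted p = 0.0282), and without female replicate 2 it was -0.94 (adjusted p = 0.0244). Its call was kept in 2 of the 6 fits. *Eip75B* was at -0.50, past the adjusted p at any fold.

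Of the nuclear receptors that follow them, *Hr4* and *Eip78C* were called lower. *Hr4*, a receptor gene on the X chromosome that helps time the switch to metamorphosis, had 0.39, 0.956 and 1.03 CPM in the metafemale libraries, against 5.01, 89.1 and 7.16 CPM in the female libraries. Every metafemale library was below every female library, and female replicate 2 was far above the other females. The log2 fold change was -5.41 (SE 1.29, edgeR adjusted p = 0.0175), and without female replicate 2 it was -2.93 (adjusted p = 0.00967 by edgeR). *Eip78C* had 9.17, 6.83 and 15.7 CPM in the metafemale libraries, against 30.3, 289.9 and 35.9 CPM in the female libraries, or -3.49 (SE 0.97, edgeR adjusted p = 0.0291), and -1.63 without that library (adjusted p = 0.022). Both calls were kept without any 1 female library and lost without any 1 metafemale library. *Hr3*, which acts after the large pulse, had 1.59, 1.48 and 1.78 CPM in the metafemale libraries, against 2.63, 18.2 and 2.89 CPM in the female libraries, and a log2 fold change of -2.29 (SE 0.77, edgeR adjusted p = 0.0553), which did not pass. *ftz-f1*, a receptor gene turned on once the hormone level falls, had 129, 92.97 and 88.9 CPM in the metafemale libraries, against 54.3, 62.9 and 52.95 CPM in the female libraries, a difference of 0.87 (adjusted p = 0.00773) that passed at any fold only. It was the 1 regulator of 16 that passed as higher. *Hr38*, for another orphan nuclear receptor, had 29.1, 18.98 and 18.7 CPM in the metafemale libraries, against 17.1, 8.84 and 7.13 CPM in the female libraries, without overlap, and its log2 fold change of 1.01 (SE 0.35, edgeR adjusted p = 0.0618) did not pass, although it was called higher by DESeq2, with a replicate block and without female replicate 1. In all, 4 regulators were called lower and 7 were lower at any fold. Without any 1 metafemale library 1 was called lower, and with a replicate block 2. The count at any fold was 2 without metafemale replicate 2 or 3, 4 with a replicate block and 10 with libraries scaled by annotated totals.

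At the distal transcript start of *Eip74EF*, female replicates 2 and 3 stood above the metafemales, whereas female replicate 1 lay close to the metafemales. The distal start (3L, 17619325), that of the E74A form, which in cultured tissue needs a high hormone level, had 0 counts in each metafemale library over its 3 transcripts. In the female libraries it had 0.732, 439.7 and 68.8 CPM, nearly all in replicates 2 and 3. The proximal starts (17576320 and 17576626), those of the E74B form, had 94.0, 71.5 and 96.5 CPM in the metafemale libraries, against 139.8, 55.5 and 129.6 CPM in the female libraries, with overlap. These are estimates that divide the reads of shared exons, with no test. How far such estimates can swing is seen in *EcR*, whose transcript EcR-RA was given 362.3, 261.9 and 76.4 CPM in metafemales and 668.9, 6.97 and 13.7 CPM in females.

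Among ecdysone-induced targets 3 of 11 were called, all lower. *ImpE1*, turned on by the hormone in discs, had 3.32, 1.81 and 4.39 CPM in the metafemale libraries, against 17.8, 41.95 and 20.95 CPM in the female libraries, or -3.08 (SE 0.45, edgeR adjusted p = 0.00319). *ImpE2*, an apical matrix gene of everting discs, had 0.139, 0.736 and 3.23 CPM in the metafemale libraries, against 19.1, 48.1 and 23.6 CPM in the female libraries, or -4.46 (SE 1.03, edgeR adjusted p = 0.0154), a call lost without metafemale replicate 2. *ImpE3* fell by 1.41, with its call kept in 4 of the 6 fits with 1 library left out and lost without female replicate 2. The groups were separate in all of these. The other 8 targets, among them the ecdysone importer gene *Oatp74D* (0.30), lay between -0.30 for *Eip63E* and 0.50 for *ImpL1* and did not pass. Late 71E genes, made by the salivary gland at pupariation, were low in all 6 libraries. Their summed level was 0.268, 0.473 and 0.585 CPM in the metafemale libraries, against 1.07, 1.745 and 1.31 CPM in the female libraries. Of 10, 3 were tested. *Eig71Eg* had 0 counts in each metafemale library and 0.77, 0.859 and 0.438 CPM in the female libraries, at least 26.9-fold lower, *Eig71Eb* fell by 1.45 with its call kept in 1 of the 6 fits, and *Eig71Ea* (0.11, edgeR adjusted p = 0.956) overlapped.

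Few genes of ecdysone synthesis and breakdown were called, in both directions. Of 14 tested, 2 (14.3%) were called in each direction, against 9.75% of all genes higher and 4.83% lower. At any fold 2 (14.3%) were higher and 6 (42.9%) lower, against 20.6% and 18.0% of all genes. Without female replicate 1, female replicate 2 or metafemale replicate 2 none was called lower, and without female replicate 2 the 6 became 3. *Cyp18a1*, the X-linked enzyme gene that inactivates ecdysteroids, had 21.7, 18.6 and 13.5 CPM in the metafemale libraries, against 3.39, 8.67 and 5.95 CPM in the female libraries, or 1.58 (SE 0.35, edgeR adjusted p = 0.0134). *GstE14* (Noppera-bo), which acts on cholesterol handling in the ring gland, had 1.61, 1.92 and 1.48 CPM in the metafemale libraries, against 0.342, 0.62 and 0.41 CPM in the female libraries, and rose by 1.87. In the synthesis pathway, *nvd*, the first enzyme gene, had 51.6, 38.8 and 52.7 CPM in the metafemale libraries, against 86.5, 97.1 and 86.7 CPM in the female libraries, a difference of -0.92 that passed at any fold (adjusted p = 0.00357 by edgeR). *sro*, for a short-chain dehydrogenase of the following step, fell by 1.06, and *sad*, for a late hydroxylase, stood at -0.69. *shd*, whose enzyme makes the active hormone in peripheral tissue, was at -0.47. *spok* (-0.54, adjusted p = 0.0604), *dib* (-0.71) and the brain peptide gene *Ptth* (-0.96, adjusted p = 0.217) did not pass. *ouib*, a ring gland transcription factor gene, fell by 1.41. The calls of *sro* and *ouib* were each kept in 2 of the 6 fits with 1 library left out, and both were lost without female replicate 2.

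Few juvenile hormone genes were called, and these were mixed. Of 14 tested, 2 (14.3%) were called higher and 1 (7.1%) lower, against 9.75% and 4.83% of all genes. *JhI-26*, a juvenile hormone-inducible gene, had 167, 162 and 154 CPM in the metafemale libraries, against 47.7, 34.6 and 41.01 CPM in the female libraries, or 1.97 (SE 0.14, edgeR adjusted p = 0.000475). *Jheh3*, a juvenile hormone epoxide hydrolase gene, had 189, 197 and 153 CPM in the metafemale libraries, against 61.3, 52.3 and 47.3 CPM in the female libraries, or 1.75 (SE 0.15, edgeR adjusted p = 0.000704), and its neighbour *Jheh1* was at 0.66. The groups were well separated. The esterase genes *Jhedup* and *Jhe*, named for the breakdown of the hormone, were at -1.65 and -0.85, with the call of *Jhedup* kept in 2 of the 6 fits. *Kr-h1*, the transcription factor gene that juvenile hormone turns on, had 76.4, 75.1 and 92.9 CPM in the metafemale libraries, against 109, 116 and 114 CPM in the female libraries, a difference of -0.47 (edgeR adjusted p = 0.0164) below the fold limit. Its receptor gene *Met*, on the X chromosome, was at 0.51, close to the 0.43 of the X-linked median. The synthesis gene *jhamt* was at 0.61 (adjusted p = 0.0562). Among ecdysis peptides only *Burs*, a subunit of the tanning hormone bursicon, was called, with 1.14, 1.03 and 1.43 CPM in the metafemale libraries, against 0.14, 0.23 and 0.137 CPM in the female libraries, or 2.83 (SE 0.33, edgeR adjusted p = 0.00161). *Lgr3*, the receptor gene for Ilp8, had 0.926, 0.561 and 0.33 CPM in the metafemale libraries, against 1.004, 1.98 and 0.657 CPM in the female libraries, with overlap (adjusted p = 0.177).

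**Figure D5:**
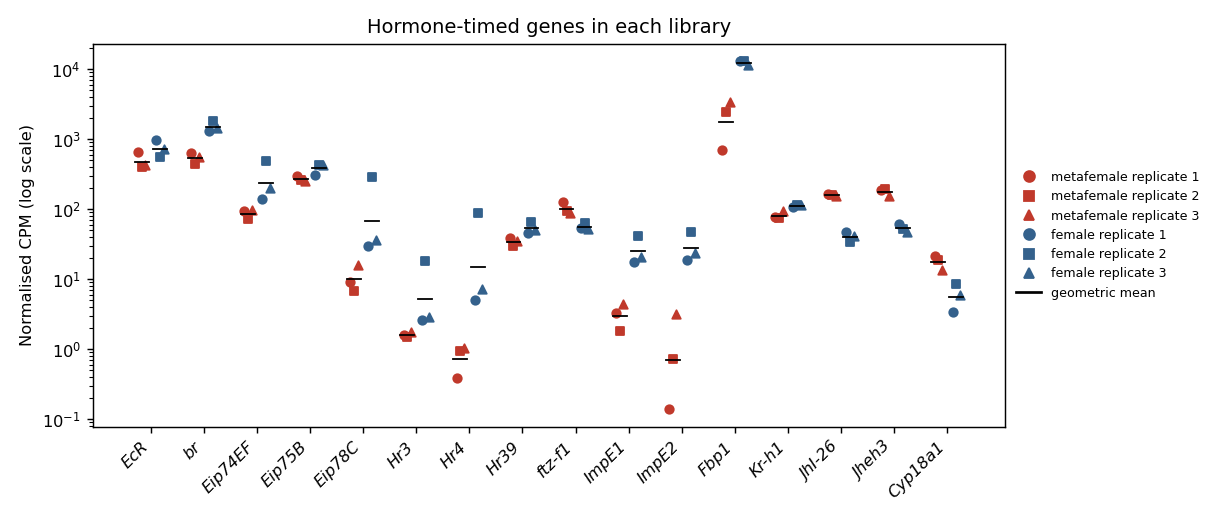
Normalised CPM (log axis) of hormone-timed genes in each metafemale (red) and female (blue) library, with the geometric mean as a bar and symbols for replicates. *br*, *Hr4*, *ImpE1*, *ImpE2* and *Fbp1* lie lower in metafemales, *JhI-26*, *Jheh3*, *Cyp18a1* and *ftz-f1* lie higher, and female replicate 2 (square) is the highest library for *Eip74EF*, *Eip78C*, *Hr3* and *Hr4*.

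Members made up 401 of the 11995 genes tested, and the lists were chosen with earlier results of these data known. Counts of members among the largest changes are therefore no test of the lists. Over all genes tested, the 12 called protein-coding genes with the largest rise in metafemales, among those with a mean of at least 5 CPM in 1 group, included 4 members, *Ilp8*, *Cpr47Eg*, *Cpr65Ax2* and *Cpr65Ax1*, and the 12 with the largest fall included 5, *Hr4*, *Sgs5bis*, *Sgs1*, *ImpE2* and *twi*. Of the others that rose, *mthl8*, a Methuselah-like receptor gene, had 9.27, 8.27 and 9.52 CPM in the metafemale libraries and 0 counts in each female library, at least 350.1-fold higher. *CG15515* had 98.5, 133 and 52.5 CPM in the metafemale libraries, against 0.708, 0.593 and 0.575 CPM in the female libraries, or 7.24 (SE 0.42, edgeR adjusted p = 0.000396). *CG13560* had 25.2, 25.4 and 22.6 CPM in the metafemale libraries, against 0.187, 0.0709 and 0 CPM in the female libraries, and *CG11350* 21.9, 16.1 and 10.95 CPM in the metafemale libraries, against 0.233, 0.23 and 0.137 CPM in the female libraries. *Acsx1L*, *CG43133* and *CG13705* rose by 8.17, 7.46 and 6.27 without overlap, and *CG16779* by 8.66, with 14.9, 7.17 and 0.132 CPM in the metafemale libraries and a call kept in 4 of the 6 fits with 1 library left out. Of those that fell, *CG14332* had 0.208, 6.91 and 6.12 CPM in the metafemale libraries, against 65.3, 87.4 and 79.2 CPM in the female libraries, *CG5391* 3.004, 3.32 and 7.71 CPM in the metafemale libraries, against 113, 265 and 83.3 CPM in the female libraries and *CG42716* 0.026, 1.39 and 0.536 CPM in the metafemale libraries, against 19.2, 23.5 and 17.003 CPM in the female libraries. All of these were separate between groups, and *CG14332* kept its call in 4 of the 6 fits. *CG42717* and *CG5756* changed by -4.83 and -3.89. *Achl* and *CG7906* were high in female replicate 2 alone, and both lost their call without it, without any 1 metafemale library and with a replicate block. *Achl* had 0.0519, 0.105 and 1.03 CPM in the metafemale libraries, against 2.05, 76.01 and 1.74 CPM in the female libraries. *CG7906* had 0, 0 and 0.14 CPM in the metafemale libraries, against 0.514, 38.1 and 0.593 CPM in the female libraries.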

How the data were processed

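Total RNA, with ribosomal RNA removed, was sequenced as paired reads of 150 bases. The authors aligned reads with Hisat2 2.0.5, merged transcripts with Cuffmerge 2.2.1 and deposited estimated counts per transcript made with StringTie 1.3.3. Whether these count reads or fragments, and the strand setting, were not given in the sources used here, so overlapping and antisense genes may share counts. Here, 34750 of 34919 FlyBase transcripts of 42937 in the table were paired with 17715 genes by Ensembl release 115 (BDGP6.54; the methods name release 102), and 8017 assembled transcripts were left out. Estimated counts were summed per gene. The test was edgeR 4.0.16 (R 4.3.3; TMM, filterByExpr) on 6 libraries, checked on simulated data.

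The members and gene lists were chosen with earlier results of these data known. Named were the 12 called protein-coding genes of each direction with the largest fold (mean of at least 5 CPM in 1 group). In each list, called members with the largest folds were named among those whose metafemale and female libraries did not overlap. Lack of overlap in those members was thus a rule of choice and is no further support. Further members were named for their role, after their values were seen. The pattern for Cpr genes was narrowed to leave out the P450 reductase gene *Cpr*. Alternatives were DESeq2 1.42.0, other scalings and filters, a replicate block, leaving out X-linked genes and leaving out each library. Male libraries served only to check labels. Figures used matplotlib 3.10.9.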

Additional observations from a re-analysis of the deposited data

How the results depend on the processing

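With the adjusted p at any fold, the counts were 2475 higher and 2161 lower genes, 47 disc members, 46 gut members, 30 hormone members and 16 fat body members. Without X-linked genes, 9 salivary gland members were called. Leaving out 1 library at a time gave 1028 to 1234 higher and 431 to 613 lower genes, 3110 to 4103 genes at any fold, and called members of 33 to 40 for cuticle, 11 to 16 for discs, 5 to 8 for fat body, 15 to 25 for gut, 10 to 17 for hormone-timed programs, 4 to 15 for muscle and 11 to 13 for salivary gland. DESeq2 called 1297 genes higher and 634 lower, its size factors gave 1202 and 554, scaling by whole-table totals gave 1139 and 576, no filter 1205 and 546, and a minimum of 10 counts in every library 1056 and 524.

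Over all genes tested, the replicate numbers showed no clear pairing. Deviations of metafemale and female libraries with the same number correlated at 0.015, -0.067 and 0.045 for numbers 1, 2 and 3, and only number 3 correlated best with its own. Such correlations cannot exclude a shared order in some genes. The summed larval muscle level fell from replicate 1 to 3 in both groups, and with a replicate block 19 of these genes were higher at any fold, against 16 without it. With a replicate block, 1127 genes were higher and 514 lower, and called members were 41 for cuticle, 12 for discs, 7 for fat body, 21 for gut, 13 for hormone-timed programs, 13 for muscle and 13 for salivary gland.

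Over 207 named genes and 14 other settings, 2630 of 2846 checks kept the direction and side of the threshold, 142 lost and 64 gained a call, and 10 changed sign, all in 5 genes not called in the report. Many of these genes were named for their folds or after their values were seen, so these counts give no rate for all genes tested. *Eig71Ea* (0.11) gave -0.0185 with whole-table totals, -0.0595 with totals over annotated transcripts, -0.20 with the replicate block and -0.73 to 1.03 with 1 library left out. *dpp* (-0.06) gave 0.0305 without X-linked genes and -0.095 to 0.0162 with 1 library left out, and *NimC1* (0.12) gave -0.014 with totals over annotated transcripts. With 1 library left out, *Lsp1alpha* (-0.08) ranged over -0.31 to 0.27 and *ple* (-2.50) over -3.03 to 1.01. The cause was not tested, save that *ple* turned without the library in which it was highest. Genes near the floor of 3 counts per library, such as *Eig71Ea*, rest on few counts, and the part of depth was not tested.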

Other observations

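Genes of other tissues gave a mixed picture. Of 15 genes used as blood cell markers, 3 were called higher and 1 lower, and 7 were higher and 3 lower at any fold. Without female replicate 1, 6 were called higher, and without female replicate 1, female replicate 2 or metafemale replicate 2, 1 was lower at any fold. The collagen IV genes *vkg* and *Col4a1*, which blood cells and fat body secrete into basement membranes, had 281, 225 and 182 CPM in the metafemale libraries, against 79.8, 71.9 and 59.1 CPM in the female libraries for *vkg* and a log2 fold change of 1.27 for *Col4a1*. *vkg* rose by 1.71 (SE 0.19, edgeR adjusted p = 0.00146). *NimC2*, a phagocytosis receptor-family gene, had 5.004, 14.7 and 28.98 CPM in the metafemale libraries, against 175, 245 and 175 CPM in the female libraries, or -3.61 (SE 0.61, edgeR adjusted p = 0.00517), with groups far apart, while its neighbour *NimC1*, a marker of plasmatocytes, differed by 0.12 (edgeR adjusted p = 0.402). *Hml*, a marker of mature blood cells, differed by 0.84, past the adjusted p at any fold.

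Stress and immune peptide genes that were called were all higher in metafemales. The summed antimicrobial peptide level varied, with 156, 427 and 415 CPM in the metafemale libraries, against 297, 45.5 and 380 CPM in the female libraries. *TotC*, a Turandot gene of the stress response, had 4.2, 3.64 and 3.77 CPM in the metafemale libraries, against 0.0545, 0.0443 and 0.0456 CPM in the female libraries, with tight replicates in both groups, and rose by 6.29 (SE 0.22, edgeR adjusted p = 0.00019). *TotE* rose by 5.05, and *TotA* was at 1.20 (edgeR adjusted p = 0.0734). Of 14 antimicrobial peptide genes, 3 (21.4%) were called higher and none lower, against 9.75% and 4.83% of all genes, and 5 higher without female replicate 3. *CecC* had 9.02, 13.7 and 29.5 CPM in the metafemale libraries, against 1.69, 3.68 and 1.96 CPM in the female libraries, or 2.83 (SE 0.52, edgeR adjusted p = 0.00671), and *CecB* and *AttD* rose by 4.58 and 2.18.

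Of 14 neuronal genes, 3 (21.4%) were called higher, against 9.75% of all genes, and no more were higher at any fold, against 20.6% of all genes. The called count was 1 without female replicate 1 or 2 and none without metafemale replicate 1. *para*, the X-linked sodium channel gene, had 80.2, 26.1 and 23.99 CPM in the metafemale libraries, against 14.6, 14.8 and 14.1 CPM in the female libraries, and *Gad1* and *ChAT*, for the enzymes that make GABA and acetylcholine, were at 1.09 and 1.01. Metafemale replicate 1 was the highest library for each, and the pan-neuronal *elav* and *nSyb* did not pass (0.31 and 0.17). The call of *para* was kept in 2 of the 6 fits with 1 library left out, that of *ChAT* in 3 of the 6. Of 7 glial genes only the X-linked *moody*, for a receptor of the blood-brain barrier, was called (1.18), and of 6 Malpighian tubule and 4 tracheal genes none was. At any fold 3 of the Malpighian tubule genes were higher, in each fit with 1 library left out as well, and 3 of the tracheal genes were lower. The tracheal count was 0 without female replicate 2 or any 1 metafemale library, and 1 without female replicate 1 or 3. *bam*, a germline differentiation gene, had 0.563, 0.508 and 0.527 CPM in the metafemale libraries, against 2.49, 2.21 and 1.46 CPM in the female libraries, and fell by 1.94. Of the male markers, *lncRNA:roX2* had 0.216, 0.245 and 0.313 CPM in the metafemale libraries, against 4.79, 0.629 and 1.26 CPM in the female libraries, and fell by 3.10 (called in 3 of the 6 fits with 1 library left out), and *topi*, a testis gene, fell by 1.48.

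A transcript of *Eip75B* was also at 0 in metafemales. Eip75B-RG had 0 counts in each metafemale library and 21.4, 18.3 and 37.5 CPM in the female libraries, as an estimate that divides shared exons.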
